A study of Rattus norvegicus with 2 samples.

Results

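Genes that encode neuropeptide precursors were examined in the adrenal medulla (AM) of rats during insulin-induced hypoglycemia. The 7 genes were Penk, Npy, Gal, Nts, Nmu, Vgf and Prlh, out of 14217 genes that had a probe set of their own on the array, and each was read by 1 of the 31042 probe sets used. They were chosen from the study's short list of the genes raised most at baseline after recurrent hypoglycemia (RH), and because they also read higher in the 2RH30 array than in the 2RS30 array. Their direction in this comparison is therefore set by how they were chosen, and their values are given as a description.

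Both groups were adult male Sprague-Dawley rats that underwent a hyperinsulinemic-hypoglycemic clamp on day 4, with glucose held between 40 and 50 mg/dL, and were killed 30 min after the target glucose was reached. The 2RH30 animals had been given intraperitoneal human insulin, 2 IU/kg, 2 times daily on the 3 days before (1 morning injection on the last of them per the study's methods), and serve as the model of a defective counter-regulatory response. The 2RS30 animals had been given saline injections on the same schedule and met hypoglycemia for the first time in the clamp. Left adrenal medullae of 6 rats per group were pooled, and 1 Affymetrix Rat Genome array was hybridized per pool, so the spread between animals is not known and no test between the groups was possible.

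Chromaffin cells of the AM store neuropeptides in the same dense core granules as epinephrine and norepinephrine, and release them together with the catecholamines when the splanchnic nerve fires. Each peptide is cut out of a larger precursor inside the granule by prohormone convertases, trimmed by a carboxypeptidase and, in many cases, amidated at its C-terminus. Splanchnic stimulation and stress are known to raise the mRNAs of several of these precursors, and many of the genes carry cAMP response elements (CRE), which bind CREB-family factors, near their start sites. Npy, galanin and enkephalins act back on chromaffin cells, nerve endings and vessels through G protein-coupled receptors.

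The enkephalin, Npy and galanin precursors, the classical co-transmitters of chromaffin cells, read 2.53-fold to 4.84-fold higher in 2RH30. Penk encodes proenkephalin, the source of Met- and Leu-enkephalin, which are opioid peptides. Its log2 value was 9.97 in 2RH30 and 7.69 in 2RS30, a difference of 2.28 (4.84-fold), the highest of the 7 genes. Npy encodes neuropeptide Y, a vasoconstrictor released together with catecholamines. It read 8.88 in 2RH30 and 7.29 in 2RS30, a difference of 1.59 (3.01-fold). Gal encodes galanin and the galanin message-associated peptide. It read 6.08 in 2RH30 and 4.74 in 2RS30, a difference of 1.34 (2.53-fold).

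The precursors of neurotensin, neuromedin U and prolactin-releasing peptide read between 1.92-fold and 4.42-fold higher. Nts encodes neurotensin and neuromedin N, and was at 6.67 in 2RH30 and 4.53 in 2RS30, a difference of 2.14 (4.42-fold). Nmu encodes neuromedin U, a peptide named for its action on uterine smooth muscle that also takes part in feeding and stress responses. It was at 6.71 in 2RH30 and 5.71 in 2RS30, a difference of 1.0 (2.00-fold), which put it at the 2-fold threshold of the study. Prlh encodes an RFamide peptide of the stress and feeding circuits, and was at 7.48 in 2RH30 and 6.54 in 2RS30, a difference of 0.94 (1.92-fold), just under that threshold.

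Vgf encodes a granin-like secretory protein that is induced by nerve growth factor and cut into several peptides such as TLQP-21. It showed the smallest difference of the 7, with 5.99 in 2RH30 and 5.26 in 2RS30 (0.74 on the log2 scale, 1.66-fold). Gal, Nts and Vgf lay below the median of all probe sets in 2RS30, which was 5.50, while all 7 lay above the 2RH30 median of 5.51.

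**Figure D1:**
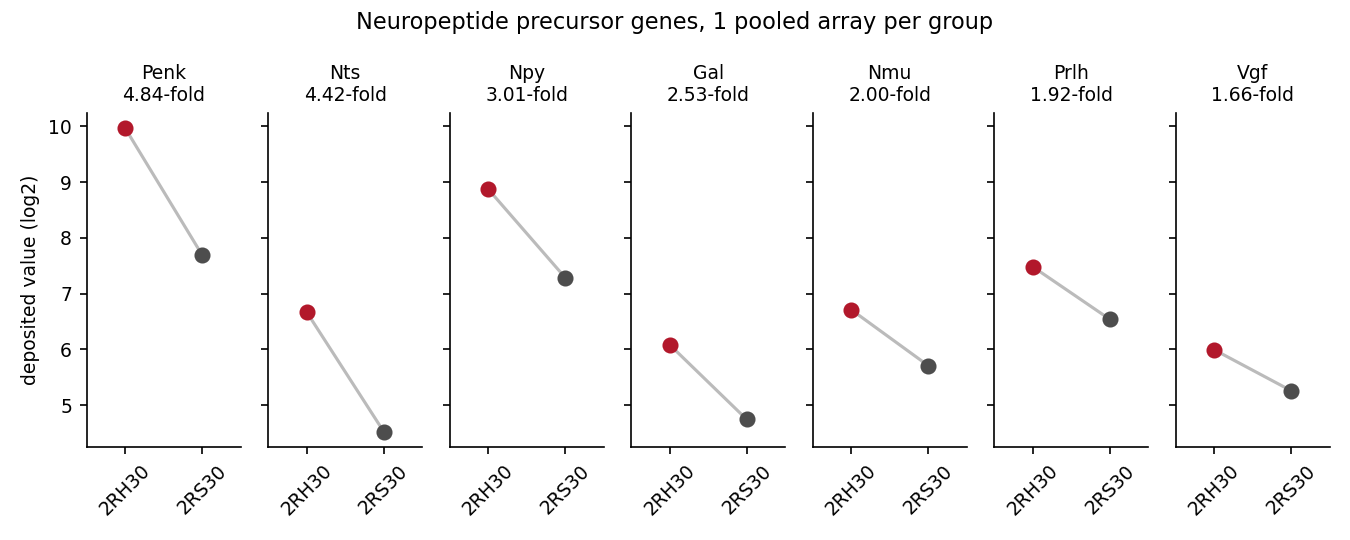
Deposited log2 value (vertical axis) of each of the 7 genes in 2RH30 (red, left) and 2RS30 (grey, right), 1 pooled array per group, with the fold difference above each panel. Each gene reads higher in 2RH30, by 4.84-fold for Penk at one end and by 1.66-fold for Vgf at the other.

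By size of the difference the order was Penk, Nts, Npy, Gal, Nmu, Prlh and Vgf. Neighbours in this order were 0.06 to 0.56 apart on the log2 scale. Each gene was read by 1 probe set, so no second probe set was there to check any of them. In other genes, probe sets of the same gene gave differences that varied with an SD of 0.83 at mean levels of 5 to 7 (1597 genes) and of 0.55 at higher levels (335 genes). No neighbours in the order were farther apart than the SD that this spread gives to a gap (1.0 to 1.17). Penk and Vgf, at the ends of the order, were 1.54 apart, beyond it. The difference of Penk was 4.11 times the SD at its level, that of Npy 2.87 times and that of Nts 2.59 times. Prlh was at 1.70, Gal at 1.61 and Nmu at 1.21 times, while Vgf, at 0.89 times, lay within the SD. With the trend by level removed, as described below, Penk was at 3.15, Nts at 2.46 and Npy at 2.01 times. Gal was then at 1.56 and Prlh at 1.11, and Nmu (0.97) and Vgf (0.76) lay within the SD. As the genes were chosen for higher values, these ratios describe the differences and do not test them. The spread between animals is not part of this SD.

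A difference of 2-fold or more was reached by 5 of the 7 genes, Penk, Nts, Npy, Gal and Nmu. Over all genes, 11.5% were 2-fold or more higher in 2RH30 and 9.62% were 2-fold or more lower, while 56.1% were higher by any size. Over all 31042 probe sets, 10.4% were 2-fold or more higher and 12.1% lower. The median difference of the 7 genes was 1.34, against 0.11 over all 14217 genes. Ranked among all genes by their difference, Penk stood at place 70, Nts at 111, Npy at 431, Gal at 767, Nmu at 1606, Prlh at 1841 and Vgf at 2809. As the genes were chosen for high values in this comparison, these places describe the size of the differences and do not test them.

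The arrays differed in ways that touch these values. Bright probe sets as a whole read higher in 2RH30, with a median difference of 0.49 in the brightest of 20 level bins and -0.38 in the dimmest, and the bioB hybridization control read lower in 2RH30, at -3.25. When this trend with level was removed by lowess, Nts differed by 2.05, Penk by 1.77, Gal by 1.30, Npy by 1.13, Nmu by 0.81, Vgf by 0.63 and Prlh by 0.62. On this level-adjusted scale 4 of 7 genes were 2-fold or more higher, against 8.95% of all genes (9.31% were lower by as much and 51.2% higher by any size), and Nts stood above Penk. The adjustment took 0.51 from Penk and 0.46 from Npy but 0.04 from Gal and 0.10 from Nts, which are dimmer than Penk and Npy. Among the 1000 probe sets nearest in level, 99.7% had a lower difference than Penk, 98.9% than Nts, 96.7% than Npy and 93.3% than Gal. These shares were 86.6% for Nmu, 82.8% for Prlh and 79.2% for Vgf.

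**Figure D2:**
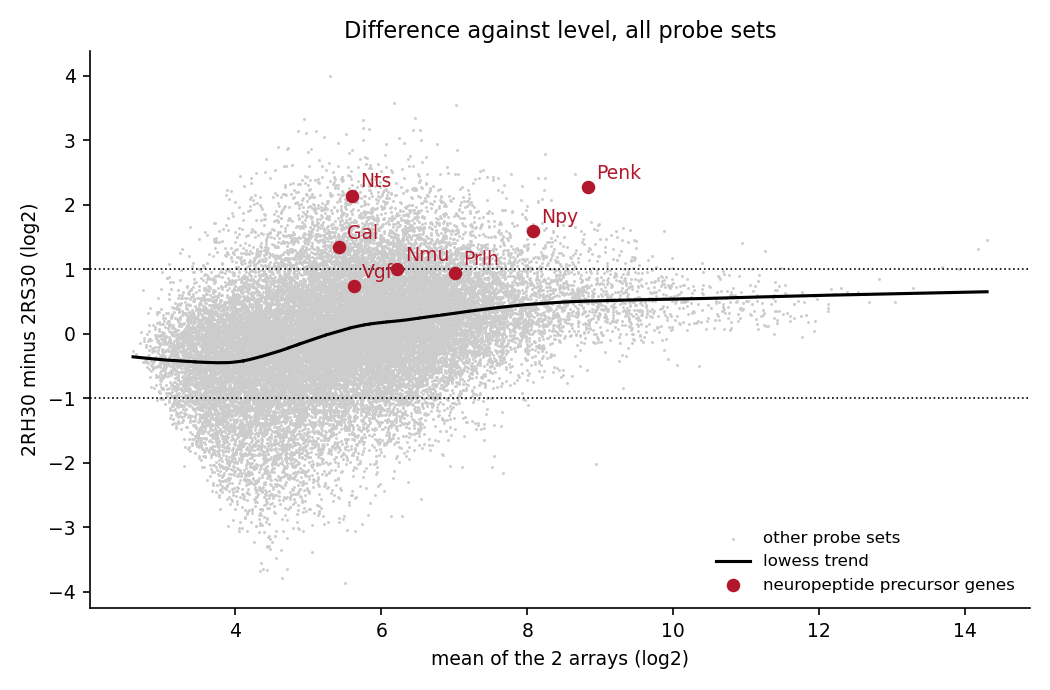
The vertical axis gives 2RH30 minus 2RS30 (log2) and the horizontal axis the mean of both arrays (log2), for all probe sets (grey dots), with the lowess trend (black line) and the 7 neuropeptide genes (red). Dotted lines mark a 2-fold difference, and Penk, Npy, Nts and Gal lie more than 1 log2 unit above the trend.

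**Figure D3:**
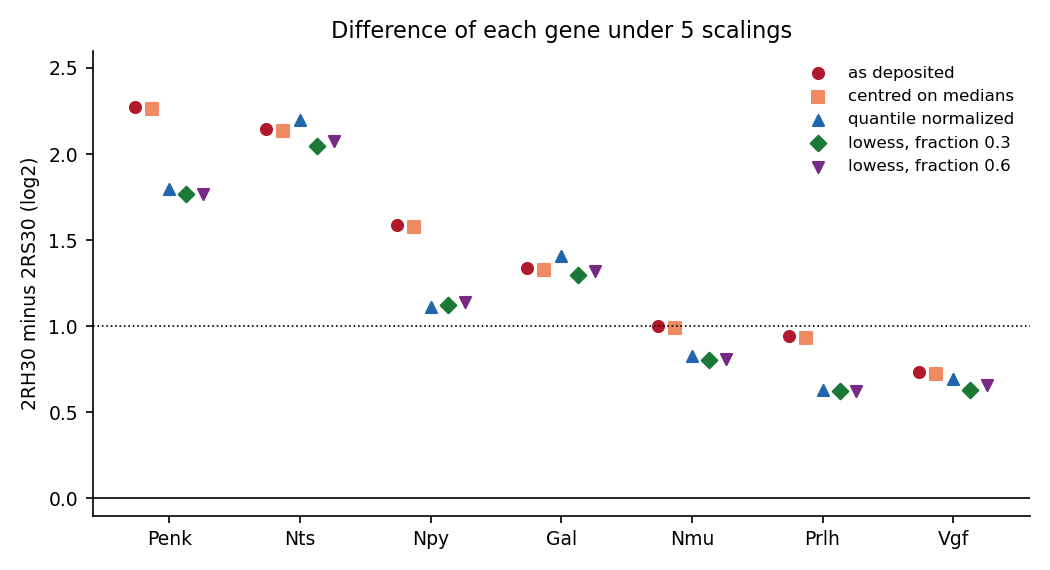
Difference of each gene between 2RH30 and 2RS30 (log2, vertical axis) under 5 scalings of the 2 arrays (symbols). Penk, Nts, Npy and Gal stay above the dotted 2-fold line under all 5, and Nmu reaches it as deposited (1.0) but not under the other 4.

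Close relatives of the 7 genes were read in the same arrays. Of the other opioid precursors, Pomc, the precursor of ACTH and beta-endorphin, was at 6.13 in 2RH30 and 4.81 in 2RS30, a difference of 1.32 (level-adjusted 1.26). Pdyn, which encodes the dynorphins, differed by 1.23 in its brighter probe set and by -1.64 in the other, so that its direction was not settled. Pnoc, the nociceptin precursor, differed by 0.24. Of the Npy family, Pyy and Ppy differed by 0.23 and 0.52, and Galp, the relative of galanin, by 0.52. The RFamide precursors Npff and Npvf, relatives of Prlh, differed by 0.01 and 0.09. Among these relatives, Pomc and the brighter Pdyn probe set were more than 2-fold higher, and the other Pdyn probe set was more than 2-fold lower. The remaining genes differed by less than the SD between probe sets.

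Over a wider list of peptide precursors, 49 of 63 had a probe set of their own. Of these 7 were 2-fold or more higher and 5 lower in 2RH30, where 11.5% of all genes were higher and 9.62% lower by as much. The median was 0.21 (level-adjusted 0.02). Gcg, the glucagon precursor, had the highest difference among those not dim, that is, not under the array median on both arrays. It read 5.93 in 2RH30 and 4.02 in 2RS30 (percentile 10.7 of that array), a difference of 1.91. A gene can escape the dim label through 1 array alone, as Gcg and Agt did through 2RH30 and Apln and Bdnf through 2RS30. By size of the difference, Agt, which encodes angiotensinogen, followed Gcg at 1.42. Apln, the apelin precursor, was the lowest, with 4.42 in 2RH30 and 7.22 in 2RS30, and both its probe sets were lower (-2.80 and -1.87). Bdnf differed by -1.92 in one probe set and by -0.16 in the other. Cartpt, which encodes the CART peptides, differed by 1.12. The other precursors past 2-fold, Nppa and Grp above and Adcyap1, Vip and Edn1 below, were dim. Adcyap1 differed by -1.50 in its brighter probe set and by -0.03 in the other. Calca differed by 0.56 in its brightest probe set and by -1.40 and -0.21 in the others. The counts past 2-fold thus depend on the probe set used, and with the mean over probe sets they were 6 higher and 4 lower.

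Granins and related proteins share the secretory granule with Vgf. None of the 8 measured was 2-fold different in either direction, and 7 read higher as deposited and 5 when level-adjusted, with a median of 0.49 (level-adjusted 0.11). Chga, which encodes chromogranin A, was at 9.72 in 2RH30 and 8.84 in 2RS30, a difference of 0.88, and Nucb2, the nesfatin-1 precursor, differed by 0.67. The lowest were Scg5, the chaperone 7B2 of prohormone convertase 2, at -0.42, and the convertase inhibitor precursor Pcsk1n at 0.22. Of the 7 neuropeptide genes, which were chosen for high values, 6 lay above the highest of these 8 as deposited and 7 did when level-adjusted.

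Of 21 measured receptors of the peptides, 9 were dim, and 2-fold or more separated the arrays for 4 (3 higher and 1 lower in 2RH30), a share near that of all genes (11.5% higher and 9.62% lower). The median was 0.21 (level-adjusted 0.09). Among the 12 not dim, Ackr3, an atypical receptor that scavenges enkephalins, was at 6.07 in 2RH30 and 4.97 in 2RS30, a difference of 1.09. Ntsr1, the high-affinity neurotensin receptor, was at 6.90 in 2RH30 and 5.85 in 2RS30, a difference of 1.05 (level-adjusted 0.83). The lowest of these were Npy4r, at -0.63, and C3ar1, a receptor of the Vgf peptide TLQP-21, at -0.36. Oprd1, the delta receptor that binds enkephalins, differed by 0.54, and Oprm1, the mu receptor, by 0.03. Galr2 and Galr3 differed by -0.04 and 0.34, and Nmur1 by -0.01. The sortilin gene Sort1, whose protein binds neurotensin, differed by -0.23 in one probe set and by 1.64 in the other. Npy1r, Npy2r, Npy5r, Nmur2 and Prlhr were dim, as were the other 2 receptors past 2-fold, Npffr2 above and Galr1 below.

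Of 12 measured enzymes that mature the precursors, 11 read higher in 2RH30 as deposited and 9 when level-adjusted, against 56.1% and 51.2% of all genes. None was higher by 2-fold or more, and 1 was lower by as much. The median was 0.55 (level-adjusted 0.33). Pcsk2, a prohormone convertase, was at 6.89 in 2RH30 and 5.98 in 2RS30, a difference of 0.91, and Pcsk7 differed by 0.77. Cpe, the carboxypeptidase that removes the basic residues left after cleavage, differed by 0.65. Pam, which amidates peptides such as Npy, galanin and neuromedin U, differed by 0.13 in its brightest probe set and by -1.06 and -0.21 in the others. Cpd, another carboxypeptidase, differed by 0.68 in its brighter probe set and by 2.06 in the other. Qpct, which makes the N-terminal pyroglutamate found on neurotensin, was at 2.88 in 2RH30 and 5.81 in 2RS30. Its 2RH30 value was below 3.16, which 5% of the values on that array do not reach, and its difference was -2.93.

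Of 14 measured peptidases that break neuropeptides down, 2 were 2-fold or more higher and 0 were lower, against 11.5% and 9.62% of all genes. The median was 0.32 (level-adjusted 0.06). Ece1, an endothelin-converting enzyme that also cuts several neuropeptides in endosomes, was at 6.34 in 2RH30 and 4.37 in 2RS30, a difference of 1.97. Its 2RS30 value was under the median of that array, at percentile 18.6. Ace differed by 1.34, but its other probe set by -1.15. Lnpep differed by 0.43 in its brighter probe set and by 4.00 in the other, and Ide by 0.50 in its brightest and by 0.20 and 1.73 in the others, so the count of 2 depends on the probe set used. Mme, the enkephalin-degrading enzyme neprilysin, differed by 0.57. The lowest not dim were Dpp4, which trims the N-terminus of Npy, at -0.75 and Npepps at -0.30.

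Transcription factors known to act on such promoters had a median of 0.42 over 28 measured genes, and of 0.02 when level-adjusted. As deposited, 2-fold was passed by 6 above and 1 below, where 11.5% of all genes were higher and 9.62% lower by as much. With the mean over probe sets these counts were 2 and 0. On the level-adjusted scale 2-fold was passed by Cebpd, Crtc1 and Nr4a3 above and Jund below, against 8.95% and 9.31% of all genes. Among them, Nr4a3, an activity-induced nuclear receptor, was at 8.40 in 2RH30 and 6.81 in 2RS30, a difference of 1.58, against 0.36 and 0.96 in its further probe sets. Cebpd was the highest at 2.06, with its other probe sets at 1.20 and -0.40. The lowest were Jund, at -1.38 with its other probe sets at -0.50 and 1.61, and Fosb at -0.81. Creb1 differed by 0.91, and its other 3 probe sets by 1.0, -1.22 and -0.57. The brightest probe set of Crem, a CREB relative, was at 10.12 in 2RH30 and 9.16 in 2RS30, a difference of 0.96. Crem had 6 probe sets, and the first 3 of the others, by identifier, differed by 1.90, 1.04 and 0.69. For Jund, Cebpd and Creb1 the probe sets of 1 gene thus pointed in both directions. The same held for Crtc1 (1.49 in its brighter probe set and -0.47 in the other), Gata3 (1.18 and -0.47), Stat3 (0.70 and -0.63) and the dim Nr3c1 (0.37 and -1.09), and Crebbp differed by 0.38 in its brightest probe set and by -1.14 in another.

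**Figure D4:**
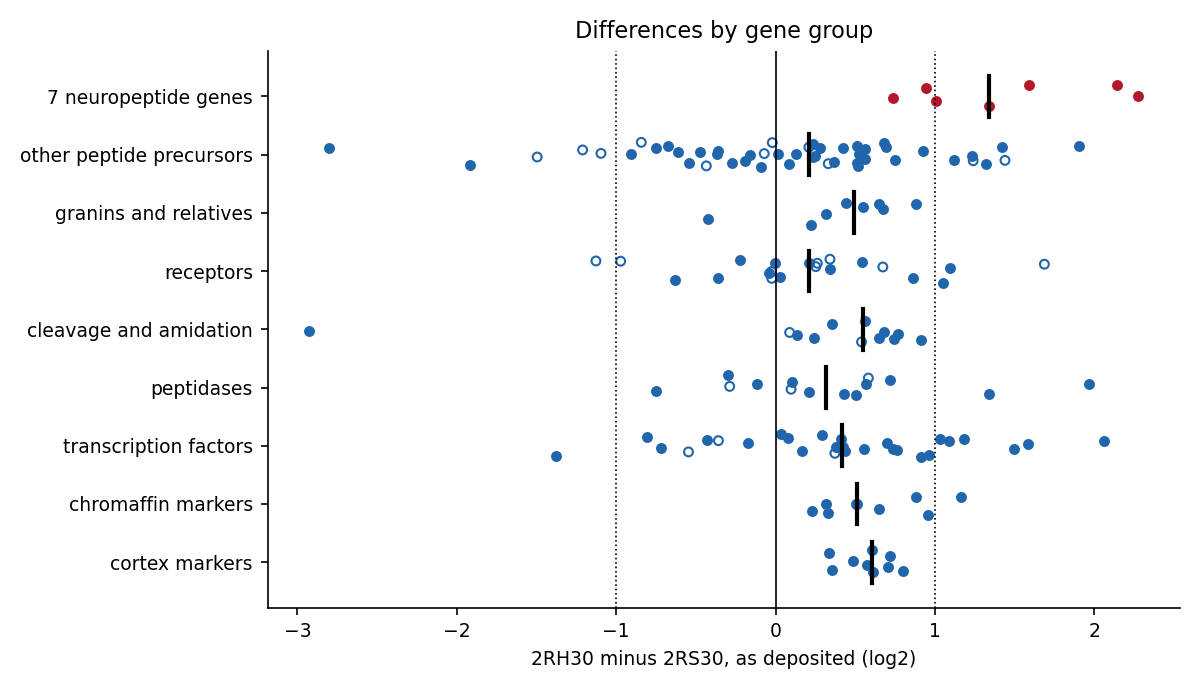
Difference between 2RH30 and 2RS30 as deposited (log2, horizontal axis) for the genes of each group (rows), filled where at least 1 array is above its median and open where the gene is dim, with the group median (black bar). Dotted lines mark a 2-fold difference. The 7 neuropeptide genes, chosen for higher values, have a median of 1.34, and the other groups have medians of 0.21 to 0.60.

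The tissue label was checked against marker genes. Chromaffin markers were bright on both arrays, with Th, tyrosine hydroxylase, at 11.96 in 2RH30 and 11.45 in 2RS30, and Pnmt, which makes epinephrine, at 11.67 in 2RH30 and 11.35 in 2RS30. Of the 10 chromaffin markers, 9 were measured, all read higher in 2RH30 as deposited and 5 when level-adjusted, and their differences ran from 0.23 for Ddc to 1.16 for Syp, with a median of 0.51 (level-adjusted 0.09). Penk, Nts, Npy and Gal, which were chosen for high values, lay above all 9 in both forms. Nmu, Prlh and Vgf were within the range of these markers.

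Markers of the steroid-producing cortex were also bright, so both pools held cortical transcripts. All 9 of the 12 cortex markers that were measured lay at or above percentile 97.7 of both arrays, with differences from 0.33 to 0.80 and a median of 0.60 (level-adjusted 0.03, with 6 higher). Summed on the linear scale, the chromaffin markers were at 11567 in 2RH30 and 8070 in 2RS30, the cortex markers at 35890 in 2RH30 and 23066 in 2RS30, and the 7 neuropeptide genes at 1989 in 2RH30 and 597 in 2RS30. These sums, as deposited, were 1.43-fold, 1.56-fold and 3.33-fold higher in 2RH30. The neuropeptide genes, unlike the markers, were chosen for high values in 2RH30. Most of their sums came from Penk (1002 in 2RH30 and 207 in 2RS30) and Npy (470 in 2RH30 and 156 in 2RS30). In such pools a larger number of peptide-producing cells and more RNA per cell cannot be told apart.

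Other cells of the gland can also hold neuropeptides. Of the 11 markers of ganglion cells and cholinergic nerve, which had a median difference of 0.02, Stmn2, a protein of growing axons, was at 7.77 in 2RH30 and 5.01 in 2RS30, a difference of 2.76, with 0.71 in its other probe set. Other members of this list read lower in 2RH30, with Elavl3 at -0.92 (0.77 in its other probe set), Prph at -0.66 and Elavl4 at -0.62. The cholinergic genes Chat (0.50), Slc18a3 (-0.13) and Slc5a7 (-2.06) were dim. The summed level of this list was 659 in 2RH30 and 601 in 2RS30. Schwann and sustentacular markers, 7 of 10 measured, summed to 984 in 2RH30 and 727 in 2RS30 (median 0.41). Endothelial markers, 7 of 8 measured, summed to 522 in 2RH30 and 438 in 2RS30 (median 0.20). Macrophage and leukocyte markers, 10 of 10 measured, summed to 1685 in 2RH30 and 1114 in 2RS30 (median 0.46). Of these C1qa (2.71), Cd68 (1.60), C1qb (1.38) and C1qc (1.33) were 2-fold or more higher and Itgam (-1.11) lower, against 11.5% and 9.62% of all genes. The 2RS30 value of C1qa, 3.06, was below 3.67, which 5% of the values on that array do not reach. Csf1r (-0.77) and Ptprc (-0.71, and -2.13 in its other probe set) also read lower. Aif1 differed by 0.36 in its brighter probe set and by -1.29 in the other. Red blood cell markers, 3 of 5 measured, summed to 1011 in 2RH30 and 748 in 2RS30 (median 0.42). Single bright genes made up most of some sums, Pmp22 for the Schwann, Lyz2 for the macrophage and Hbb for the red blood cell markers. The part of these other cells in the neuropeptide values was not tested.

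The short list from which the neuropeptide genes were chosen covers only part of the genes raised at baseline. It holds 3 further genes that are not neuropeptides. Timp1, an inhibitor of metalloproteinases, was at 8.50 in 2RH30 and 6.77 in 2RS30, a difference of 1.73. Lcn2, an acute-phase lipocalin, was at 5.87 in 2RH30 and 4.25 in 2RS30, a difference of 1.62, and Myh8, a myosin heavy chain, differed by 1.16. These 3 differences lay between those of Nmu and Nts.

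Promoter sequence was not used to choose the genes. The 7 genes lie on 7 chromosomes of the GRCr8 assembly. RefSeq places Penk at chr5:21981381-21987074, Npy at chr4:80212111-80219310, Gal at chr1:210079709-210084572 and Nts at chr7:39451484-39460888. Nmu lies at chr14:32198789-32226397, Vgf at chr12:25274004-25281803 and Prlh at chr9:98991628-98996515. RefSeq promoters of this assembly were found for 6 of the 7, all but Penk, and the 250 bases before each start were searched on both strands. The full CRE, TGACGTCA, was found in 1 of 6, Vgf, and in 1.59% of all 33469 promoters. The CRE core, TGACG, which the full CRE also contains, was found in 5 of 6, all but Npy, against 18.2% of all promoters. A CRE with a free base, TGACNTCA, was in Vgf and Nts, against 8.88%. The AP-1 site TGAGTCA was in Nts and Nmu, against 4.05%, and the TATA box TATAAA was in Gal, Prlh and Vgf, against 12.9%. The GC box GGGCGG was in Npy, Nmu and Vgf, against 30.5%, the CCAAT box CCAAT in Npy and Vgf, against 34.0%, and the E-box CACGTG in Nmu and Vgf, against 5.59%. The glucocorticoid receptor motif TGTTCT was in Gal, against 17.5%, and the EGR sites GCGGGGGCG and GCGTGGGCG were in 0 of 6. GC content was 61.6% to 67.6% in the promoters of Gal, Nmu, Npy and Vgf, 48.8% in Nts and 43.6% in Prlh, against a median of 51.2% over all promoters. The shares over all promoters were not matched for GC content. Matches of this kind describe the letters and do not show that a factor binds there.

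The following stretches of 150 bases, which end 1 base before the RefSeq start, are shown because they hold a CRE-type match close to it. They are given 5′ to 3′ on the strand of the gene, with CRE and TATA matches in capitals. The full CRE of Vgf lies at positions -90 to -83, the CRE with a free base of Nts at -72 to -65 and the CRE core of Gal at -63 to -59, counted back from the start. The Vgf stretch lies at chr12:25277021-25277170 (minus strand), and the gene record of Vgf reaches farther upstream than the start used here. The Nts stretch lies at chr7:39460889-39461038 (minus strand) and the Gal stretch at chr1:210084573-210084722 (minus strand).
Vgf: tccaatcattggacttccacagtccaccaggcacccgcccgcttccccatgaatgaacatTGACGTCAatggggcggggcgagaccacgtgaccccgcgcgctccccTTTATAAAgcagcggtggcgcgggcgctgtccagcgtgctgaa
Nts: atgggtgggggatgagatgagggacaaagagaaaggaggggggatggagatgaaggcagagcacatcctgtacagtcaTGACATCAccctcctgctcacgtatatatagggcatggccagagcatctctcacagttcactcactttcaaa
Gal: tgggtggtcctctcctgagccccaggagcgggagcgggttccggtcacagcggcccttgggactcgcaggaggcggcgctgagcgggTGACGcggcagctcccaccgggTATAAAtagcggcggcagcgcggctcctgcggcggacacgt

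Set beside the array values, the gene with the full CRE, Vgf, had the smallest difference of the 7 as deposited (0.74). Level-adjusted, Prlh (0.62) lay just below Vgf (0.63). Npy, with no CRE-type match in this window, had a difference of 1.59. The Penk promoter was not searched, and any link between these motifs and the differences was not tested. Nts, with the CRE with a free base and an AP-1 site farther up at -212 to -206, differed by 2.14, and Gal, with a CRE core, by 1.34. Nmu held a CRE core at -103 to -99 and an AP-1 site at -160 to -154, and Prlh a CRE core at -210 to -206. Like that of Vgf, the gene records of Nmu and Prlh reach farther upstream than the starts used here.

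**Figure D5:**
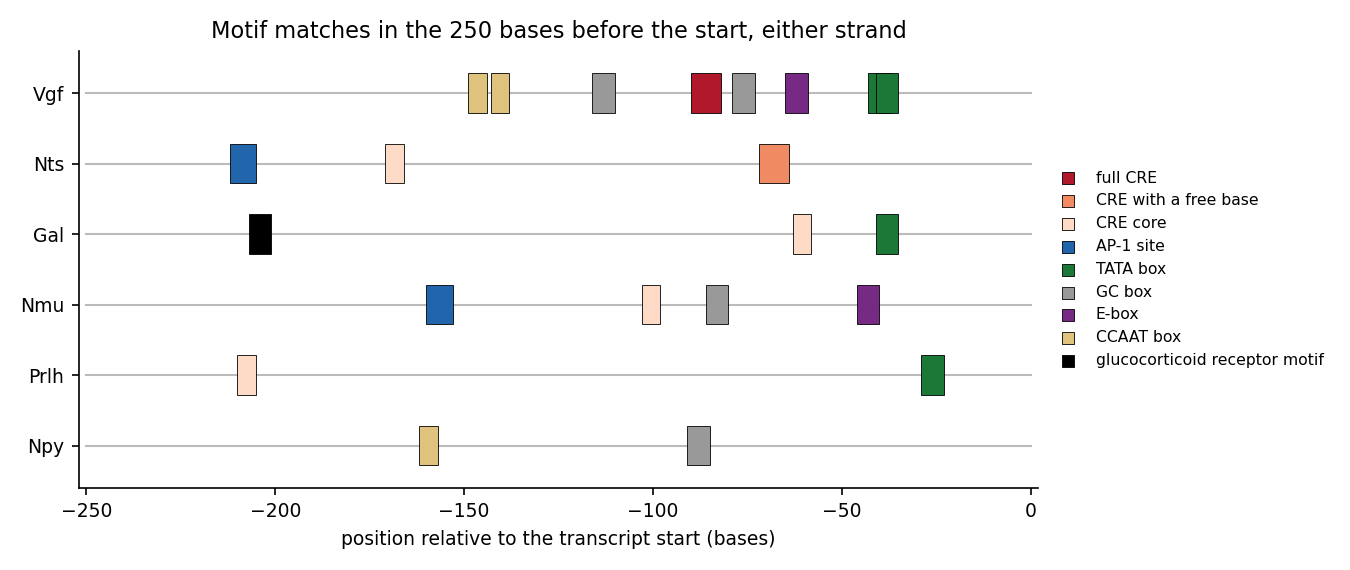
Motif matches (coloured boxes) in the 250 bases before the RefSeq start of 6 genes (rows), either strand, by position relative to the start (bases, horizontal axis). A CRE core or CRE with a free base inside the full CRE of Vgf is not drawn apart. CRE-type matches lie nearest to the start in Gal, Nts and Vgf, and Npy has none.

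The genes with values nearest to those of each neuropeptide gene were looked up by Euclidean distance over the 2 arrays on the log2 scale. The nearest to Penk was Ints6, at a distance of 0.29 (9.89 in 2RH30 and 7.41 in 2RS30). Npy had Fzd5 as its nearest, at 0.08, Nts had Abcb4, at 0.04, and Nmu had Tmem106b, at 0.03. The nearest to Gal, Vgf and Prlh were Rnf223, Rhou and Szrd1, at 0.02, 0.02 and 0.01. With 2 arrays, nearness in both values says no more than that the genes read alike in these 2 pools.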

How the data were processed

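For each Affymetrix Rat Genome array, the authors deposited a log2 value for every probe set. Affymetrix Expression Console is listed in the submitters' processing notes without a version. The study's methods name GCRMA in Partek and call the deposited data quantile-normalized. Which of them made these values is not stated, and the log2 scale was read from the range of the values. The 2 arrays do not share 1 distribution as deposited, so they were not quantile-normalized to each other in this form. The SD was 1.57 in 2RH30 and 1.28 in 2RS30, and the highest value 15.03 in 2RH30 and 13.58 in 2RS30. Of 31099 probe sets, 57 controls were set aside, 20826 of the rest had 1 gene, 436 several and 9780 none, and symbols were updated through RefSeq (20758 matched). Where a gene had several probe sets, the one of highest mean level was used. No model was fitted, because each group has 1 array. Their number limits the precision. Level-adjusted differences had a lowess curve of the difference on mean level subtracted (fraction 0.3, 3 iterations). The steps were tested on simulated data.

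The members and gene lists were chosen with earlier results of these data known. Named genes were all members, the 2 highest and 2 lowest of each list that were not dim (cell type markers are given mainly by range), the gene nearest to each member and, chosen after their values were seen, relatives, receptors and enzymes tied to a member, genes past 2-fold in small counts and genes with conflicting probe sets where a count could turn on them. The CRE with a free base was added after the promoters were seen. Alternatives were other scalings, thresholds and probe set rules. Python 3.11.15, numpy 2.4.6, pandas 2.3.3, statsmodels 0.14.6 and matplotlib 3.10.9 were used.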

Additional observations from a re-analysis of the deposited data

How the results depend on the processing

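The 7 neuropeptide genes were chosen for higher values in 2RH30. They also read higher there under centring on the median, quantile normalization and both lowess fractions (0.3 and 0.6). Each moved by less than the SD between probe sets. The mean over probe sets left their values unchanged by construction, as each gene has 1 probe set. Quantile normalization gave them a median of 1.11, lowess 1.13 and 1.14, and centring 1.33, against 1.34 as deposited. The number at 2-fold or more was 5 as deposited, 4 under each of the 4 other scalings, where Nmu was lost, and 3 at a 3-fold threshold, by construction. Vgf has no value without probe sets that can match several transcripts. Over all probe sets, 3226 were 2-fold or more higher and 3751 lower. These counts were 1630 and 1368 with 1 probe set per gene, 7068 and 7174 at 1.5-fold, and 928 and 1353 at 3-fold, by construction. Without dim probe sets, 2834 were higher and 1745 lower as deposited, so the balance turned toward higher. On the level-adjusted scale 1950 of the probe sets not dim were higher and 2192 lower. The cause of the turn was not tested. Of the list medians, that of cortex markers was -0.06 after lowess with a fraction of 0.6, that of ganglion and nerve markers -0.08 with the mean over probe sets, and that of red blood cell markers -0.07 after quantile normalization and -0.11 and -0.14 after lowess. The cause was not tested. No paired analysis was possible because a group holds a single array. Leaving out an array was not run, since none would be left in that group. No background signal came with the values, so no limit can be stated for dim genes.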
